A study of Mus musculus with 5 samples.

Results

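The nuclear-encoded subunits of the mitochondrial respiratory chain were followed in RNA-sequencing libraries of mouse amygdala astrocytes, and 84 of the 35976 genes in the deposited count table were taken as such subunits by their symbols. They comprised 37 genes of complex I (symbols starting with Nduf), 4 of complex II (Sdha, Sdhb, Sdhc and Sdhd), 8 of complex III (Uqcr), 18 of complex IV (Cox) and 17 of complex V (Atp5), with pseudogene symbols left out. The rule used symbols and no measured value, although it was set with earlier results of these data known. Of the 84 genes, 82 passed a low-count filter and were tested. The rule follows names, so Ndufa4 and its paralogue Ndufa4l2 stand under complex I although the NDUFA4 protein is now placed in complex IV. In the same way Atp5s and Atp5sl stand under complex V, although their products are a coupling factor and an assembly factor. The 81 subunit genes with a RefSeq position lay on 19 chromosomes, and 3 of them (Cox7b, Ndufa1 and Ndufb11) were on the X chromosome.

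All mice had the genotype Ccr2::CreERT2/+;DTR/+, in which tamoxifen activates a Cre recombinase made in Ccr2-expressing cells and so switches on a diphtheria toxin receptor there. All received tamoxifen and 18 days of tube restraint, with saline or diphtheria toxin (DTx) given during the restraint, and then underwent fear conditioning and extinction. The toxin was meant to remove Ccr2-expressing monocytes, so the cells targeted were not the astrocytes that were sequenced. Astrocytes were taken from digested amygdala with magnetic beads against ACSA-2, an astrocyte surface antigen, and 5 ng of total RNA entered each library. There were 2 saline libraries (replicates 1 and 2) and 3 DTx libraries, called 5A, 6A and 7A after their columns, and values listed with saline or with DTx below follow that order. The labels used here give no age, and they leave unsaid whether libraries came from separate animals. The p-values therefore measure only the spread between these libraries.

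The respiratory chain passes electrons from NADH through complex I, or from succinate through complex II, to ubiquinone, then through complex III and cytochrome c to oxygen at complex IV. Complexes I, III and IV pump protons, and complex V (ATP synthase) uses the resulting gradient to make ATP. A small set of core subunits of complexes I, III, IV and V is encoded by mitochondrial DNA, whereas complex II and all other subunits are made from nuclear genes and imported. Astrocytes are known for high glycolysis beside active mitochondria that oxidise glutamate and fatty acids.

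Total counts were 15961220 to 23720299 per library, and the 84 genes together took 1.2 to 1.45% of them. All 14 astrocyte markers were measured and summed to 27270 to 29350 CPM (counts scaled to the library size with TMM factors) in saline and 28230 to 32500 CPM in DTx libraries. The 10 oligodendrocyte markers summed to more than the astrocyte markers in every library, at 60230 and 92810 CPM with saline and 42980, 44300 and 90700 CPM with DTx. Xist, the RNA of the inactive X chromosome, stood at 172.6 and 128.9 CPM in saline and at 0 to 0.1586 CPM in DTx libraries. The 4 Y-linked genes measured summed to 0.1847 and 0.08966 CPM in saline and to 185.4 to 201.2 CPM in DTx libraries, so the sex-chromosome state and the treatment cannot be told apart. Ccr2 had no count in either saline library, which allows up to 0.0677 CPM from counting error alone, and 2.854, 0.2488 and 0.2279 CPM in DTx libraries. The Ccr2 counts therefore gave no check of the depletion.

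Promoter windows are shown first because genes of different complexes are known to share binding motifs. These are motifs for nuclear respiratory factor 1 (NRF1), GA-binding protein (GABP, also called NRF2) and YY1. Any relation of the motifs to the levels given below was not tested. RefSeq entries on GRCm38.p6 of 250 bases before to 50 bases after a transcription start were matched by symbol to 66 of the 84 genes, in 71 windows. On either strand, the NRF1 letters, GCGCA and GCGC with 1 base of any kind between them, occurred in 18 of the 71 windows (25.4%), against 4.6% of all 32851 windows of this length. The GABP letters CCGGAAG occurred in 16 (22.5%, against 8.86% of all windows), and the YY1 letters AAGATGGC in 9 (12.7%, against 2.75%). At least 1 of the 3 motifs was present in 37 windows (52.1%, against 14.7%). One window is printed per complex, that of the member with the smallest p in the DTx comparison among those with an entry, 5′ to 3′ along the gene, with matches to these motifs in capitals.
Ndufs4 (complex I): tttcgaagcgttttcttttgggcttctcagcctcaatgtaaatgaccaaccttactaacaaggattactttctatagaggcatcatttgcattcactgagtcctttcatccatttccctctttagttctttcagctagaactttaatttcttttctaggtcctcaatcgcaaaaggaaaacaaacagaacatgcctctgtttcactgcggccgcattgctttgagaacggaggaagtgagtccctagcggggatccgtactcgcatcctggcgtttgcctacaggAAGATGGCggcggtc
Sdhd (complex II): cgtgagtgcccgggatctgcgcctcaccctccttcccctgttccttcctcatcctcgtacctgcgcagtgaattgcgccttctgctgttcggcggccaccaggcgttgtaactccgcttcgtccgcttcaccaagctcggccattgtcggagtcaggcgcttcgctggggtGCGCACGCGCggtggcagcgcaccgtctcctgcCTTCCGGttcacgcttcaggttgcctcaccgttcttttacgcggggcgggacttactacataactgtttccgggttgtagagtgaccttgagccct
Uqcrh (complex III): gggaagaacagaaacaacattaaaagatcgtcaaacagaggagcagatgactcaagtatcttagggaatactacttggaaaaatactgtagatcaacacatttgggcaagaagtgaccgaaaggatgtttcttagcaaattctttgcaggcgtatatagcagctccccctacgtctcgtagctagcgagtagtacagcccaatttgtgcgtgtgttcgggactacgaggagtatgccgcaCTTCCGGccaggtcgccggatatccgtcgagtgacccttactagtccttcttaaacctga
Cox6b1 (complex IV): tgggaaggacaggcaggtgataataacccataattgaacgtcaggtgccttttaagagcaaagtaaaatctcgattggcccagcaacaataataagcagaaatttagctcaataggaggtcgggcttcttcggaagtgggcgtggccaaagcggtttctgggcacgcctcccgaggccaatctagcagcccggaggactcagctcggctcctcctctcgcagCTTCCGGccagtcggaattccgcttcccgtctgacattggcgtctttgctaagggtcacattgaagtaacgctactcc
Atp5g3 (complex V): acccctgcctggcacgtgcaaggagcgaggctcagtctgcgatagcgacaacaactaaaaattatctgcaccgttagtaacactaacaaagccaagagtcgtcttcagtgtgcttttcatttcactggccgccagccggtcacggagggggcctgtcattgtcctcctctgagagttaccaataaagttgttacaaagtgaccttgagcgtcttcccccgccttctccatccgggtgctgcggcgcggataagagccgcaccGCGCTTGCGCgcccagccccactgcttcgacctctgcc
All 5 windows lie on the minus strand, at chr13:114388045-114388344, chr9:50603800-50604099, chr4:116075021-116075320, chr7:30626065-30626364 and chr2:73911277-73911576 in the order printed. The capitals mark a YY1 match 35 bases after the start in Ndufs4, and NRF1 and GABP matches 79 and 46 bases before the start in Sdhd. They mark GABP matches 10 and 28 bases before the start in Uqcrh and Cox6b1, and an NRF1 match 12 bases after the listed start in Atp5g3, which lies inside the annotated gene. These are letter matches, and factor binding was not measured.

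No subunit passed the test for a difference between DTx and saline libraries. With edgeR's quasi-likelihood test, 0 of 82 subunits passed an adjusted p of 0.05, where 0.0322% of the 15532 genes tested did (5 genes, Xist and the Y-linked Ddx3y, Eif2s3y, Uty and Kdm5d). At an unadjusted p under 0.05 the count was again 0 of 82, against 6.68% of all genes. DESeq2 called 0.715% of all genes, limma-voom 0.0322% and edgeR's likelihood ratio test 0.644%, and each called 0 subunits. The smallest p of any subunit was 0.1769 (adjusted p = 0.7911), for Atp5g3. The groups did not overlap in 6 of 82 subunits. Ndufs4, Ndufb4 and Ndufa13 were higher in every DTx library than in both saline libraries (12.1% of all genes were), and Cox7a1, Atp5l and Atp5o were lower in every DTx library (8.99% of all genes were). An exact permutation test of 2 against 3 libraries cannot give a p below 0.1, so none is given for single genes.

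**Figure D1:**
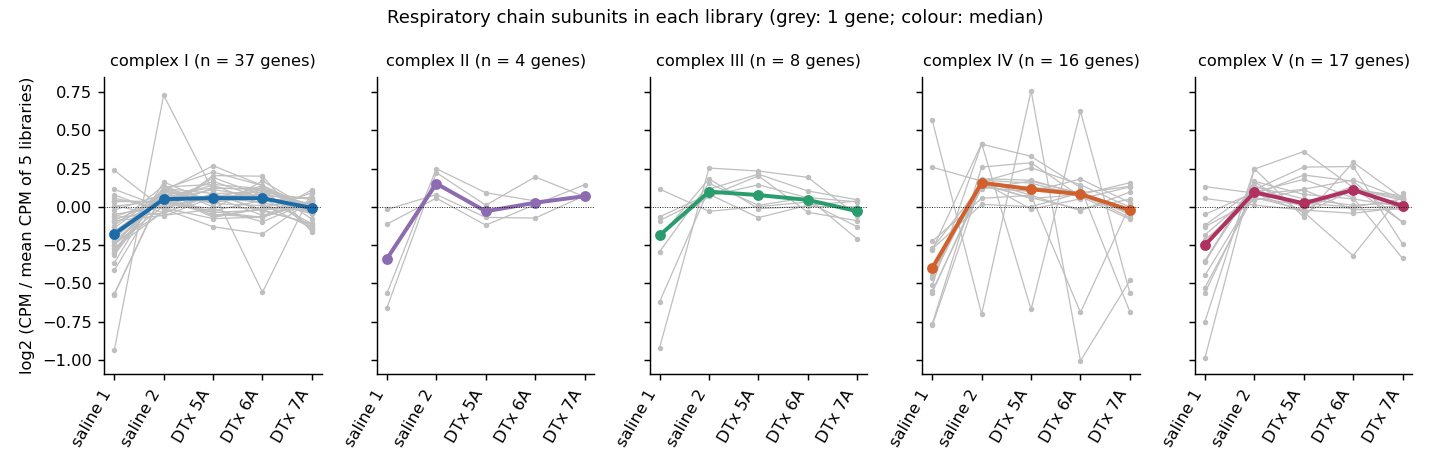
Level of each tested subunit in each library, as the log2 of its CPM over its mean CPM in the 5 libraries, in 1 panel per complex (grey lines: genes; coloured lines: medians over genes). The median of every complex is lowest in saline replicate 1, and the medians of the other 4 libraries lie close together.

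Log2 fold changes, DTx over saline, were above 0 for 60 of 82 subunits, where 50.4% of all genes were above 0, and their median was 0.10 against 0.0024 for all genes tested. The medians by complex were 0.09 for complex I, 0.10 for II, 0.05 for III, 0.16 for IV and 0.12 for V. Single values ran from -0.37 (Cox7a1) to 0.38 (Atp5g2), and the standard errors from 0.13 to 0.65 with a median of 0.16. The sign rested on 1 library. Without saline replicate 1, 15 of 82 subunits were above 0 (52.9% of all genes) and the median was -0.06. Without saline replicate 2, 69 of 83 were above 0 (52.1% of all genes) and the median was 0.28. Beside these values, the 14 neuron markers summed to 462.6 and 387.6 CPM with saline and to 530.9, 714.6 and 552.8 CPM with DTx, so the groups did not overlap. Of them 12 had log2 fold changes above 0, with a median of 0.56, 4 had an unadjusted p under 0.05 (6.68% of all genes did) and 0 were called. None of the 14 was at 0 in any library, and their part in the subunits' values was not tested.

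**Figure D2:**
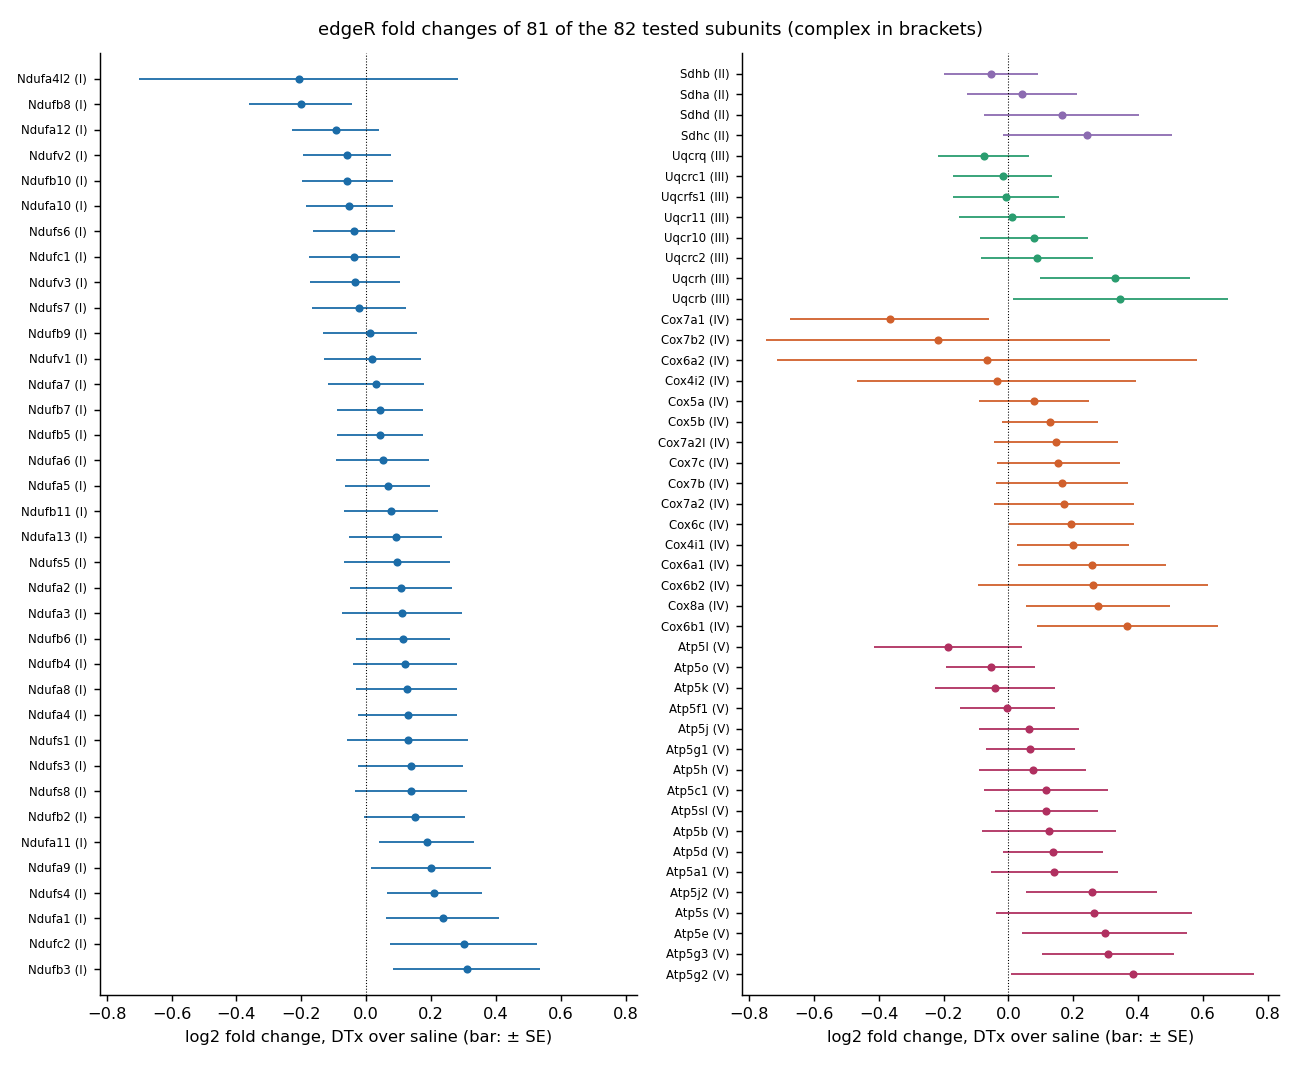
Log2 fold change of 81 of the 82 tested subunits, DTx over saline, from edgeR (points; bars: standard error), with complex I on the left and complexes II to V on the right. Values run from -0.37 to 0.38, and no subunit passed the test.

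Complex I, the NADH dehydrogenase, had 37 subunits tested. Of these 27 had log2 fold changes above 0, and the summed level was 4454 and 5018 CPM in saline replicates 1 and 2 and 4979, 4927 and 4827 CPM in DTx libraries. The saline libraries were thus the lowest and the highest of the 5. Among the core subunits, Ndufs1, which carries iron-sulfur clusters of the electron path, stood at 113.1 and 163.2 CPM with saline and at 148.4, 157.5 and 147 CPM with DTx. Ndufv1, which binds NADH and the flavin, stood at 153.2 and 181.8 CPM with saline and at 161.8, 167.3 and 179.8 CPM with DTx. In both core genes the DTx values lay between those of the saline libraries. Their log2 fold changes were 0.13 ± 0.19 and 0.02 ± 0.15 (SE), with edgeR adjusted p of 0.8938 and 0.9795.

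Ndufs4, an accessory subunit whose loss is known to cause Leigh syndrome and whose promoter window is printed above, had the smallest p of complex I. Its levels were 44.65 and 51.24 CPM with saline and 59.94, 55.17 and 51.32 CPM with DTx. The groups did not overlap, but library 7A lay next to saline replicate 2, and the log2 fold change was 0.21 ± 0.15 (SE, adjusted p = 0.7943). Ndufb3, of the membrane arm, had the largest log2 fold change of complex I, 0.31 ± 0.23 (SE, adjusted p = 0.8008). Its levels were 38.55 and 61.42 CPM with saline and 68.87, 62.94 and 54.06 CPM with DTx, with saline replicate 1 alone low. Ndufc2, also of the membrane arm, was alike, at 94.74 and 152.8 CPM with saline and 165, 155.2 and 137.1 CPM with DTx. Ndufa1, on the X chromosome, stood at 44.65 and 52.81 CPM with saline and at 62.11, 61.94 and 48.08 CPM with DTx, so its groups overlapped. Ndufb9 had the largest p of the complex (0.9325), at 210.4 and 227.6 CPM with saline and 215.3, 210 and 237.7 CPM with DTx. Of genes chosen after their values were seen, Ndufb8 was highest in saline replicate 1, at 280 CPM. It stood at 235 CPM in saline replicate 2 and at 209.9 to 244.8 CPM in DTx libraries. Ndufa12 and Ndufb10 of this complex were also highest in saline replicate 1, at 138.1 and 252.1 CPM.

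Complex II, succinate dehydrogenase, is the enzyme shared with the tricarboxylic acid cycle and has no mitochondrial-encoded subunit. Sdha, the flavoprotein, stood at 563.4 and 633.9 CPM with saline and at 560.8, 615.5 and 673.3 CPM with DTx. Sdhb, the iron-sulfur subunit, stood at 251.1 and 268.6 CPM with saline and at 242.3, 241.5 and 267.3 CPM with DTx. For both catalytic subunits the groups overlapped, and the log2 fold changes were 0.04 ± 0.17 and -0.05 ± 0.14 (SE). The membrane anchors differed from them in saline replicate 1. Sdhc stood at 108 and 199.2 CPM with saline and at 171.8, 195.3 and 178.6 CPM with DTx, and Sdhd at 73.23 and 128.8 CPM with saline and 115.5, 111.3 and 113 CPM with DTx. Both anchors had 1 low library, saline replicate 1, at 58% (Sdhc) and 62.5% (Sdhd) of the mean of the other 4. The same library stood at 90.7% for Sdha and 98.5% for Sdhb. The edgeR adjusted p over the 4 genes ran from 0.8491 to 0.9623.

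Complex III, the cytochrome bc1 complex, had 8 subunits tested, 5 of them with log2 fold changes above 0. The core proteins Uqcrc1 and Uqcrc2 stood at 431.6 and 478.2 CPM and at 133.4 and 181.8 CPM in saline replicates 1 and 2. With DTx they stood at 430, 454.8 and 463.5 CPM and at 164.6, 170.5 and 167.2 CPM. Neither gene's groups separated. Uqcrfs1, the Rieske iron-sulfur protein, stood at 193.2 and 251.5 CPM with saline and at 219.9, 222 and 221.6 CPM with DTx, with the largest p of the complex (0.9654). Its 3 DTx libraries nearly coincided, midway between the saline libraries. The small subunits Uqcrh and Uqcrb had the largest log2 fold changes, 0.33 ± 0.23 and 0.35 ± 0.33 (SE, adjusted p = 0.7974 and 0.8319). Uqcrh, the hinge protein near cytochrome c, stood at 113.2 and 188.6 CPM with saline and at 201.8, 187 and 179.7 CPM with DTx. Uqcrb, near the ubiquinone site, stood at 42.57 and 96.02 CPM with saline and at 94.72, 92.05 and 77.41 CPM with DTx. In both, saline replicate 1 was low and saline replicate 2 lay among or above the DTx libraries. Uqcrq ran the other way, at 157.3 and 142.2 CPM with saline and 145.2, 148.3 and 132.6 CPM with DTx.

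Complex IV, cytochrome c oxidase, had 18 genes, of which 16 were tested. Its summed level, 1769 CPM in saline replicate 1, was 2539 CPM in saline replicate 2 and 2496, 2502 and 2466 CPM in DTx libraries. The ratio of group means was thus 1.155, and against saline replicate 2 alone it was 0.98. Cox4i1, the ubiquitous form of subunit 4 that binds ATP, stood at 550.6 and 673.9 CPM with saline and at 666.6, 710.1 and 731 CPM with DTx (log2 fold change 0.20 ± 0.17, SE, adjusted p = 0.8169). Cox5a stood at 140 and 186.9 CPM with saline and at 176, 167.2 and 174.9 CPM with DTx. In Cox4i1 the groups overlapped by 1 DTx library, and in Cox5a the saline libraries enclosed all 3. Cox6b1, which faces the intermembrane space at the dimer contact, stood at 108.8 and 208.5 CPM with saline and at 222.3, 205.7 and 185.8 CPM with DTx (log2 fold change 0.37 ± 0.28, SE, adjusted p = 0.8032). Cox8a, the ubiquitous form of the smallest subunit, stood at 182.6 and 291.8 CPM with saline and at 286.5, 303.1 and 272.5 CPM with DTx. Cox6a1 stood at 222.4 and 364.7 CPM with saline and at 340.5, 346.7 and 365.8 CPM with DTx. All 3 of these small subunits had their lowest value in saline replicate 1 and overlapping groups.

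Complex V, ATP synthase, had all 17 genes tested, 13 with log2 fold changes above 0. The catalytic beta subunit Atp5b stood at 628.3 and 905.6 CPM with saline and at 785.5, 872.6 and 849.7 CPM with DTx. Atp5a1, its alpha partner in the catalytic head, stood at 455.7 and 640.6 CPM with saline and at 582.8, 631 and 599.9 CPM with DTx. Both genes were lowest in saline replicate 1 and highest in saline replicate 2, and their log2 fold changes were 0.12 ± 0.21 and 0.14 ± 0.20 (SE, adjusted p = 0.9059 and 0.8881). Atp5f1, the b subunit of the stator stalk, had the largest p of all 82 genes (0.9811), at 203.4 and 239.3 CPM with saline and 220.9, 219.8 and 221.8 CPM with DTx. Atp5j2, a membrane subunit, stood at 87.95 and 126.9 CPM with saline and at 138.6, 134.8 and 111.9 CPM with DTx. Atp5e, of the central stalk, stood at 55.03 and 87.82 CPM with saline and at 97.26, 97.52 and 68.64 CPM with DTx. In both, library 7A fell between the saline libraries, and the adjusted p were 0.8076 and 0.8141. Atp5o, of the stator and chosen after its values were seen, stood at 290.8 and 282.1 CPM with saline and at 275.9, 271.9 and 279.3 CPM with DTx. Its groups did not overlap, although the log2 fold change was only -0.06 ± 0.14 (SE, adjusted p = 0.9408).

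Subunit c, the rotor ring of ATP synthase, is encoded by 3 genes known to give the same mature protein with different import sequences. The last 120 coding bases of each, from GENCODE M21 (GRCm38), are shown because they let a reader judge how far reads of the 3 genes can be told apart, with the 30 positions at which the genes differ in capitals.
Atp5g1 (chromosome 11): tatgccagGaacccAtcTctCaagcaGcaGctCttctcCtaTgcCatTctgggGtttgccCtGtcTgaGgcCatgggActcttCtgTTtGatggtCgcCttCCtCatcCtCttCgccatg
Atp5g2 (chromosome 15): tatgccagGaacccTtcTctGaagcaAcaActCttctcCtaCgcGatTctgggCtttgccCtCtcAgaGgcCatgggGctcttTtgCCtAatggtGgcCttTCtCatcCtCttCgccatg
Atp5g3 (chromosome 2): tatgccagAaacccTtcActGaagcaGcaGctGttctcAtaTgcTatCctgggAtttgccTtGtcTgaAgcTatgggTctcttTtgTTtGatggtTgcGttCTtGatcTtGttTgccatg
Over these bases Atp5g1 and Atp5g2 were identical at 104 of 120 positions, Atp5g1 and Atp5g3 at 99, and Atp5g2 and Atp5g3 at 93. Atp5g3 stood at 122.6 and 186.8 CPM with saline and at 191.4, 199.7 and 183.4 CPM with DTx (log2 fold change 0.31 ± 0.20, SE, adjusted p = 0.7911). Atp5g1 stood at 50.46 and 56.89 CPM with saline and at 59.62, 54.48 and 54.63 CPM with DTx. Atp5g2 stood at 3.509 and 8.249 CPM with saline and at 8.933, 7.588 and 6.494 CPM with DTx, with 76 to 184 counts per library. All 3 genes were lowest in saline replicate 1, but by unequal amounts: it stood at 64.4% of the mean of the other libraries for Atp5g3, 89.5% for Atp5g1 and 44.9% for Atp5g2. Atp5g1 accordingly made up 29.2% of the counts of Atp5g1 and Atp5g3 in that library and 21.4 to 23.8% in the other 4. Pseudogene copies at 95% identity or more covered 88.24% of the Atp5g2 transcript, 10.94% of that of Atp5g1 and none of that of Atp5g3, and how the authors counted reads with several matches is not given in the sources used here.

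The other isoform pairs compare ubiquitous forms with forms known from particular tissues or states. The heart and muscle form Cox7a1 made up 4.3 and 2.61% of the counts of Cox7a1 and Cox7a2 with saline and 2.47, 1.56 and 2.78% with DTx, so the groups overlapped. Cox7a1 itself stood at 4.201 and 3.945 CPM with saline and at 3.7, 2.177 and 3.532 CPM with DTx. It had the lowest log2 fold change of all subunits, -0.37 ± 0.31 (SE, adjusted p = 0.8113), from 35 to 91 counts per library. Cox7a2l, which ties complexes III and IV into supercomplexes, made up 44.5 and 42.9% of the counts of Cox7a2l and Cox7a2 with saline and 40.1, 42.7 and 46.7% with DTx. The muscle form Cox6a2 had 7 to 28 counts and the testis form Cox7b2 12 to 30 counts per library, at most 0.578% and 1.39% of the counts of each pair. The testis form Cox6b2 was steadier, at 2.2 and 2.33% of its pair with saline and 2.23, 2.07 and 2.07% with DTx. Cox8b, known from muscle and brown fat, had 25 counts in all and was not tested, with 13 of them in saline replicate 1. Cox8c, known from testis, had 0 counts in the 5 libraries, which allows up to 0.031 CPM from counting error alone.

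Ndufa4l2 and Cox4i2 are forms induced in low oxygen, and in brain they are known from pericytes. Ndufa4l2 stood at 2.724 and 8.652 CPM with saline and at 5.603, 3.545 and 5.582 CPM with DTx, against 178.8 to 221.8 CPM for Ndufa4. Cox4i2 stood at 1.801 and 3.407 CPM with saline and at 3.224, 2.799 and 1.595 CPM with DTx. For both the saline libraries lay far apart and the groups overlapped, with edgeR adjusted p of 0.9365 and 0.9855. Of the 9 pericyte and smooth muscle markers, 8 passed the filter. These 8 summed to 172.6 and 443 CPM with saline and to 316.4, 256.5 and 319.2 CPM with DTx. Like Ndufa4l2, the sum was lowest in saline replicate 1 and highest in saline replicate 2, whereas Cox4i2 was lowest in DTx library 7A. Rgs5 gave the largest part of the sum, at 103.8 and 284.2 CPM with saline. Of the 8 markers 4 were lowest in saline replicate 1, while Acta2 and Myh11 were highest there. The part of pericyte RNA in Ndufa4l2 and Cox4i2 was not tested.

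Levels of different subunits were compared per kilobase of their principal GENCODE transcript, as the mean CPM per kilobase over the 5 libraries. Atp5sl had no transcript length and is left out here, so complex V is given over 16 genes. The medians over tested genes were 145.9 for complex I, 149.1 for II, 295.7 for III, 156 for IV and 176.2 for V. Cox4i1 was the highest of all subunits at 894.5 CPM per kilobase, and the muscle form Cox6a2 the lowest of those tested at 1.286. The tissue forms of complex IV set its wide range, since Cox4i2 (3.528), Cox7a1 (8.934), Cox6b2 (8.938) and Cox7b2 (1.863) lay below every other tested gene of the complex except Cox6a2. Among the core subunits of complex I, Ndufv1 stood at 101.6 and Ndufs1 at 56.3 CPM per kilobase. In complex II, Sdhb (222.5) and Sdha (210.1) stood above the anchors Sdhd (88.02) and Sdhc (53.8). In complex V, Atp5b stood at 421.9 and Atp5a1 at 235.5 CPM per kilobase. Low values there were Atp5l (10.84), Atp5s (12.39) and Atp5g2 (15.77), and in complex I Ndufb4 (16.12) and Ndufa4l2 (5.59). Pseudogene copies were found for 20 of the 84 genes. They covered 72.24% of the Atp5l transcript, 88.24% of that of Atp5g2 and 40.16% of that of Ndufb4, whereas Atp5s and Ndufa4l2, also low, had none. Of genes that stood higher, copies covered 76.73% of Atp5o (334.1 CPM per kilobase), 71.26% of Atp5h (336.2), 62.8% of Uqcrb (150.6) and 71.02% of Ndufa12 (114.9). The part of multiply matching reads in these levels was not tested.

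**Figure D3:**
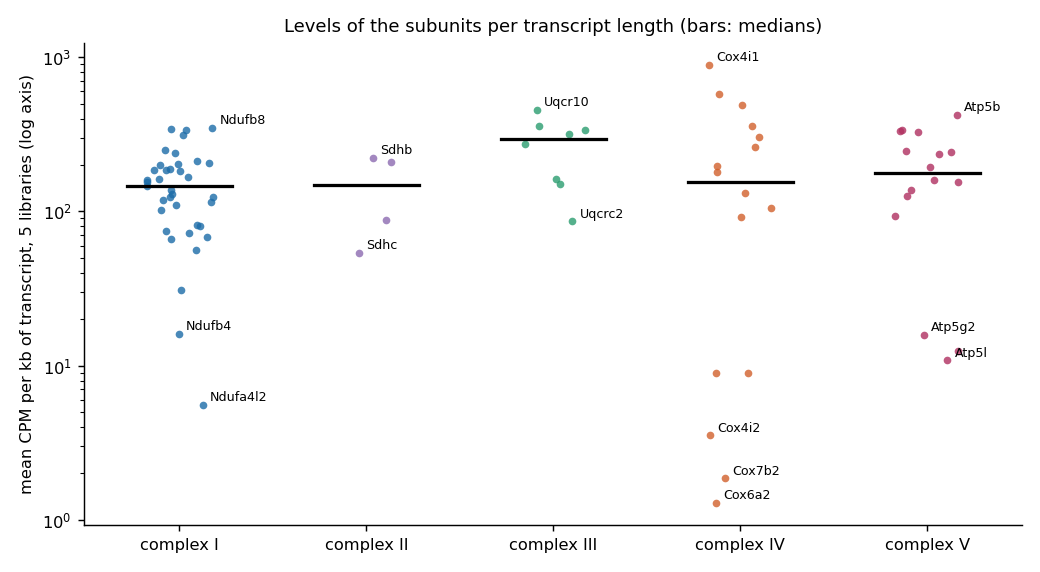
Mean level of the 81 tested subunits with a transcript length over 5 libraries, in CPM per kilobase of its principal transcript on a log axis, by complex (points: genes; bars: medians). Cox4i1 is highest at 894.5, and the tissue forms of complex IV and Ndufa4l2 are the lowest.

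The clearest pattern among these genes lay within the saline group. Saline replicate 1 was the lowest of the 5 libraries in 58 of 82 subunits (70.7%), where it was lowest in 28.3% of all genes tested. By complex the counts were 25 of 37 for I, 2 of 4 for II, 5 of 8 for III, 12 of 16 for IV and 14 of 17 for V. With counts scaled by library totals alone, it was lowest in 46 of 82 subunits and in 19.9% of all genes. The summed level of the 82 subunits was 11350 CPM in saline replicate 1, 14120 CPM in saline replicate 2 and 13620, 13750 and 13480 CPM in DTx libraries. Saline replicate 1 thus stood at 82.6% of the mean of the other 4, which lay close to each other. The complexes were unequal in this, at 90.2% for I, 84.4% for II, 84.9% for III, 78.7% for V and 70.8% for IV. In bulk libraries, fewer cells of a type and less RNA per cell cannot be told apart.

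**Figure D4:**
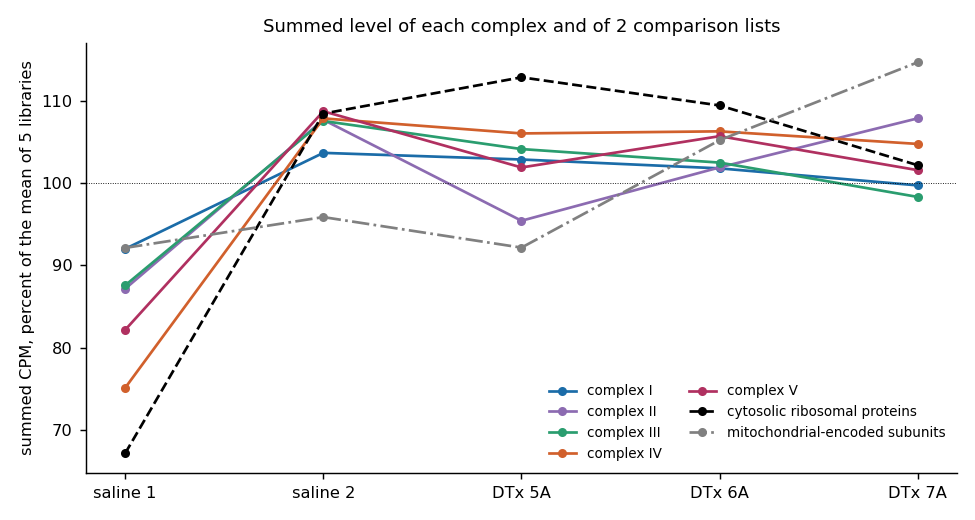
Summed CPM of each complex (coloured lines), of 52 cytosolic ribosomal protein genes (dashed) and of 9 mitochondrial-encoded subunits (dash-dotted) in each library, as a percent of the mean of the 5 libraries. Saline replicate 1 is the lowest library for every complex and lowest of all for the ribosomal genes.

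Levels in saline replicate 1 are given here as a percent of the mean in the other 4 libraries. By symbol the subunits furthest down came from every complex, but from complex I only through Ndufa4l2, with Ndufc2 next in that complex at 62.1%. They were Atp5g2 at 44.9%, Ndufa4l2 at 46.6%, Uqcrb at 47.3%, Cox6b1 at 52.9%, Cox6b2 at 53.4%, Atp5s at 54% and Sdhc at 58%. Others ran the opposite way, with Cox6a2 at 168% from 7 to 28 counts per library, Cox7a1 at 126%, Ndufb8 at 124%, Atp5l at 112%, and Uqcrq and Ndufa12 both at 111%. Other subunits lay between, such as Atp5b at 73.6%, Cox4i1 at 79.2%, Sdha at 90.7% and Uqcrc1 at 94.5%. The median log2 difference of this library from the others was -0.28 both in the 20 genes with a pseudogene copy and in the 61 tested genes without one. It was -0.43 in the 27 genes of lowest coding GC content and -0.21 in the 27 of highest. Across 81 genes of these same libraries the difference had a Spearman rho of 0.19 with coding GC content and 0.15 with coding length, given as descriptions.

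Some other gene lists also had their lowest or highest values in this library. The part of the lists below in the subunits' values was not tested. The 52 cytosolic ribosomal protein genes, short and abundant transcripts, were lowest there in 51 cases, and their sum stood at 62.1% of the mean of the other 4. The 15 microglia markers summed to 152.4 CPM in saline replicate 1, 361.1 CPM in saline replicate 2 and 599.3, 445.7 and 356.1 CPM in DTx libraries, and 14 of the 15 were lowest in saline replicate 1. None of the 15 was at 0 in any library. Of the 8 ependymal and choroid plexus markers, 6 passed the filter. These 6 summed to 225.2 CPM in saline replicate 1, the highest of the 5 libraries, against 35.91 to 200.3 CPM in the others. Clic6 alone of the 6 had a log2 fold change above 0, and 5 were below. It stood at 9.326 and 8.293 CPM with saline and at 67.76, 92.73 and 12.59 CPM with DTx. Folr1 alone of the 8 was at 0, in saline replicate 2. The 14 astrocyte markers reached 27270 CPM in saline replicate 1, against 28230 to 32500 CPM in the others. Of the 12 monocyte, border macrophage and blood markers, 6 passed the filter. These 6 summed to 26.18 and 31.51 CPM with saline and to 157.4, 25.19 and 59.98 CPM with DTx, lowest in library 6A. Lyz2, a lysozyme of myeloid cells, was the highest of them in DTx library 5A and stood at 6.418 and 9.818 CPM with saline and 91.28, 9.764 and 29.17 CPM with DTx. Of the 6, 4 had log2 fold changes above 0, and the haemoglobin genes Hbb-bs and Hba-a1 were below 0. Hbb-bs stood at 5.864 and 4.752 CPM with saline and at 3.858, 2.923 and 2.563 CPM with DTx. Hba-a1 stood at 3.832 and 2.6 CPM with saline and at 2.273, 1.182 and 1.538 CPM with DTx. Ccr2 was at 0 in both saline libraries. Ly6c2, S100a8 and S100a9 were at 0 in saline replicate 1 and in every DTx library, with 1 or 2 counts in saline replicate 2.

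When the DTx libraries were set against 1 saline library at a time, the lone saline library was assumed to vary as the DTx libraries do. Against saline replicate 2 alone, 0 of 82 subunits had an unadjusted p under 0.05, where 4.57% of all genes did (3.38% with DTx higher), and the medians by complex ran from -0.12 (complex II) to -0.03 (complex I). Against saline replicate 1 alone, 23 of 83 subunits were higher in DTx libraries at an unadjusted p under 0.05 (6.75% of all genes were), 1 was lower (Cox8b, which passed the filter in this fit), and 0 passed after adjustment. The medians ran from 0.20 (complexes I and III) to 0.45 (complex IV). The genes with the smallest p against saline replicate 1 were Uqcrb (log2 fold change 1.05 ± 0.19), Cox6b1 (0.91 ± 0.18), Uqcrh (0.74 ± 0.16) and Sdhc (0.75 ± 0.17), with edgeR adjusted p of 0.354, 0.354, 0.3646 and 0.3646. Against saline replicate 2 the same genes stood at -0.13, -0.03, 0.0042 and -0.13. No subunit was called whichever saline library was used, and the sign of the median differed between them.

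**Figure D5:**
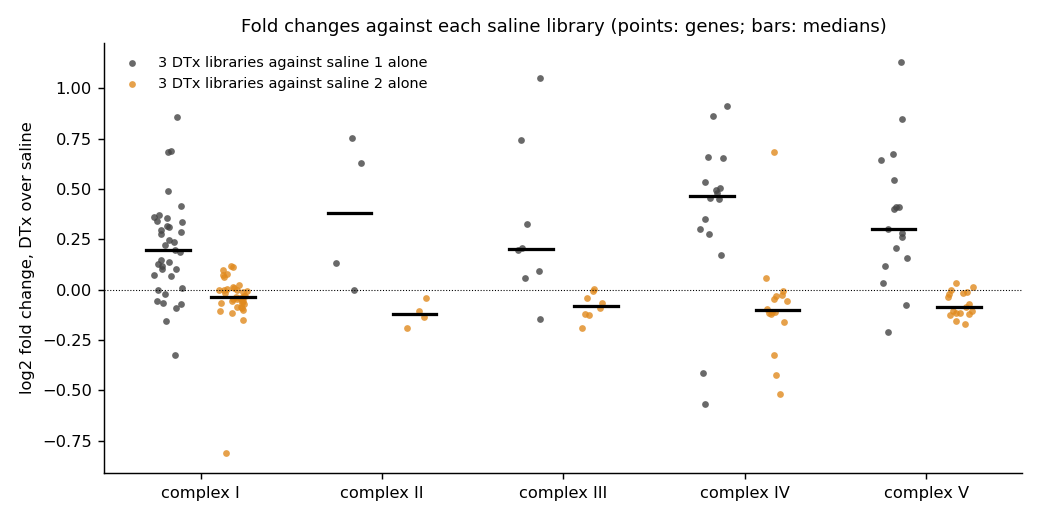
Log2 fold changes of the subunits, 3 DTx libraries over saline replicate 1 alone (grey) or over saline replicate 2 alone (orange), by complex (points: genes; bars: medians). Every complex has its grey median above 0 and its orange median below 0.

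The subunits encoded by mitochondrial DNA were read beside the nuclear ones. Of 13 such genes 9 were tested, all 9 had log2 fold changes above 0 with a median of 0.33, and 0 were called. Of these, ND4L and ND5 of complex I had the smallest p. ND5 stood at 2755 and 3121 CPM with saline and at 3487, 4249 and 4589 CPM with DTx, without overlap (log2 fold change 0.48 ± 0.22, SE, adjusted p = 0.7642). ND4L had only 14 to 30 counts per library (0.92 ± 0.41, adjusted p = 0.7642). The 9 genes summed to 59420 and 61830 CPM with saline and to 59440, 67850 and 73950 CPM with DTx, so 1 DTx library matched saline. CYTB gave the largest part of these sums, at 33510 and 29800 CPM with saline and 28060, 32230 and 36990 CPM with DTx. The sums and the ratio below therefore follow CYTB in large part. The ratio of mitochondrial-encoded to nuclear-encoded levels was 5.234 and 4.378 with saline and 4.364, 4.935 and 5.487 with DTx, and the groups overlapped. ATP6, ATP8, COX2 and COX3 had 0 to 4 counts per library, whereas COX1 had 140507 to 195515. The deposited counts therefore do not measure mitochondrial complexes IV and V fully. In complex I, ND3 had 124 to 341 and ND4L 14 to 30 counts per library, whereas ND1, ND2, ND4, ND5 and ND6 had at least 21496. Nuclear pseudogene copies covered at least 99.56% of COX1, COX2, COX3 and ATP6, and none was found for ATP8. They covered 99.14% of ND3 and 98.99% of ND4L. The part of these copies in the counts was not tested.

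Genes that build, feed or regulate the chain gave no call either. The median log2 fold change was 0.01 for 15 complex I assembly factors, 0.10 for 4 of complex II, -0.01 for 6 of complex III, 0.07 for 23 of complex IV and 0.12 for 4 of complex V. In these lists 0 genes were called, and 1 gene had an unadjusted p under 0.05. That was Cox20, a chaperone for the mitochondrial-encoded COX2 protein, at 2.632 and 2.466 CPM with saline and 4.598, 4.727 and 3.817 CPM with DTx. Its groups did not overlap, and its log2 fold change was 0.78 ± 0.27 (SE, edgeR adjusted p = 0.7421) from 55 to 87 counts per library. Atpif1, the inhibitor of ATP synthase, stood at 57.2 and 64.28 CPM with saline and at 81.98, 72.95 and 74.11 CPM with DTx, again without overlap (0.33 ± 0.14, adjusted p = 0.7486). Lyrm2 of complex I assembly had a log2 fold change of 0.28 ± 0.15, Sdhaf4 of complex II assembly 0.31 ± 0.18 and Surf1 of complex IV assembly 0.24 ± 0.16 (SE). Sdhaf2 of complex II assembly had 0.20 ± 0.19, Uqcc1 of complex III assembly 0.16 ± 0.15 and Atpaf2 of complex V assembly 0.24 ± 0.18. Timmdc1 of complex I assembly (-0.30 ± 0.23) and Bcs1l of complex III assembly (-0.17 ± 0.16) ran the other way. Below 0 were 7 of 15 factors for complex I, 1 of 4 for II, 3 of 6 for III, 9 of 23 for IV and 1 of 4 for V.

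Among 20 electron carriers and adenine nucleotide exchange genes the median was 0.04. Cycs, which encodes the cytochrome c of these cells, stood at 64.92 and 64.91 CPM with saline and at 51.43, 53.11 and 56.56 CPM with DTx. Its groups did not overlap and it was lower in DTx libraries, opposite in sign to most subunits, and its log2 fold change was -0.27 ± 0.13 (SE, adjusted p = 0.7642). Cyc1 and Ndufab1, subunits of complexes III and I outside the symbol rule and chosen after their values were seen, had log2 fold changes of -0.10 and 0.04. The 15 regulators of mitochondrial biogenesis had a median of -0.17, with 6 above 0 and 9 below. Nrf1, the factor of the first motif above, stood at 23.64 and 24.25 CPM with saline and at 19.98, 18.53 and 20.68 CPM with DTx (-0.28 ± 0.14, SE, adjusted p = 0.7685), and Polrmt, the mitochondrial RNA polymerase, had -0.39 ± 0.30. Nrf1 groups did not overlap, and the part of Nrf1 in the subunits' values was not tested. The 24 genes of the tricarboxylic acid cycle and pyruvate dehydrogenase had a median of 0.04, and 16 of them were lowest in saline replicate 1. Idh2, the mitochondrial NADP-dependent isocitrate dehydrogenase, stood at 72.67 and 103.4 CPM with saline and at 121, 120.5 and 101.5 CPM with DTx (0.38 ± 0.19, SE, adjusted p = 0.7685), with 1 DTx library below saline replicate 2.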

How the data were processed

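The authors deposited unnormalised read counts per gene as whole numbers, in separate columns for the libraries. The submitters' processing notes list the build GRCm38 (mm10) and the tools STAR 2.7.5c, featureCounts 2.0.1, fastp 0.23.2, edgeR 3.42.4, MultiQC 1.11 and FastQC 0.11.9. Counting settings, such as strand and multiply matching reads, were not given in the sources used here. Saline columns were matched to replicates by number, DTx columns to the group only, and 1 further column of per-sample values, whose name marks it as a control but matches no label used here, was not used. Counts of every pair of libraries differed by more than sampling noise (chi-square per degree of freedom at least 14.25).

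Genes were filtered with filterByExpr (minimum count 10), scaled by TMM and tested in edgeR 4.0.16 (R 4.3.3) with the robust quasi-likelihood test, and p-values were adjusted by Benjamini-Hochberg over all 15532 genes. Alternatives used limma 3.58.1 (voom), DESeq2 1.42.0, other scalings, filters and leave-one-out fits, and the test was checked on simulated counts. Isoform shares are percent of counts. Transcript lengths came from the best supported principal transcript in GENCODE M21, and pseudogene copies were found with blastn 2.17.0 (at least 100 bases at 95% identity).

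Genes named were, per complex, the 4 with the smallest p and the 1 with the largest, the core subunits, the isoform pairs and genes below the filter, and at most 2 per other list. Any other gene was named after its values were seen. Members and lists were chosen with earlier results of these data known. Intervals and floors cover counting error only. The values of 1 gene chosen by this rule are not reported here; it counts in totals and medians.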

Additional observations from a re-analysis of the deposited data

How the results depend on the processing

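No subunit passed the threshold under any alternative run, which were other scalings, filters, tools, the legacy quasi-likelihood fit and, for isoform shares, counts per transcript length (both chosen after seeing the data, as were the scalings of the count of subunits lowest in saline replicate 1) and leaving out each library. Over all genes the 5 calls became 111 with DESeq2 and 100 with the likelihood ratio test, and 3 to 13 when a library was left out, where 3 came without DTx library 6A and 13 without 7A. Leaving out 1 library moved the median log2 fold change from -0.034 to 0.20 in complex I, -0.12 to 0.38 in II, -0.081 to 0.20 in III, -0.10 to 0.45 in IV and -0.086 to 0.30 in V, with the lowest value in each case without saline replicate 1 and the highest without saline replicate 2. Differences in isoform share, DTx minus saline in percentage points, ranged from -0.27 to -0.0076 for Cox8b, -1.60 to 0.72 for Ndufa4l2 and -6.44 to -0.63 for Atp5g1. Of 560 values of named subunits under alternatives 45 changed sign and 0 passed the threshold. Outside the leave-one-out fits 7 changed sign, all near 0: Atp5f1 at 0.014 with upper-quartile scaling, 0.0125 with total counts and 0.0015 with limma-voom, Uqcrfs1 at 0.011, 0.013 and 0.0057 in the same order, and Ndufb9 at -0.0011 without a filter. In leave-one-out fits the log2 fold changes that changed sign ranged as follows: Atp5a1 -0.086 to 0.41, Atp5b -0.12 to 0.41, Atp5e -0.0035 to 0.67, Atp5f1 -0.12 to 0.12, Atp5g1 -0.019 to 0.16, Atp5g2 -0.11 to 1.13, Cox4i2 -0.42 to 0.50, Cox5a -0.12 to 0.30, Cox6a1 -0.058 to 0.66, Cox6a2 -0.77 to 0.68, Cox6b1 -0.030 to 0.91, Cox6b2 -0.16 to 0.86, Cox7a2 -0.12 to 0.53, Cox7a2l -0.11 to 0.45, Cox7b -0.11 to 0.51, Cox7b2 -0.73 to 0.17, Cox8a -0.025 to 0.65, Ndufa4 -0.0093 to 0.28, Ndufa4l2 -0.81 to 0.86, Ndufb9 -0.046 to 0.071, Ndufc2 -0.0065 to 0.69, Ndufs1 -0.12 to 0.42, Ndufv1 -0.10 to 0.15, Sdha -0.043 to 0.13, Sdhc -0.13 to 0.75, Sdhd -0.19 to 0.63, Uqcrb -0.13 to 1.05, Uqcrc1 -0.093 to 0.059, Uqcrc2 -0.12 to 0.33, Uqcrfs1 -0.19 to 0.20. Why these values moved was not tested beyond the saline values given in the report. No paired analysis was possible because the DTx columns carry no replicate number of the labels. With 2 saline libraries and a median standard error of 0.16, small changes were not detectable here.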
